A study of Mus musculus with 13 samples.

Results

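Hormones and granins of enteroendocrine cells were followed across 13 RNA-seq libraries of mouse small intestine. The 10 genes are the peptide hormone genes Sct, Sst, Gip, Cck, Gcg, Pyy, Tac1 and Nts and the granin genes Chga and Chgb. They were chosen by symbol and make up 10 of the 21420 genes listed in both count tables. All 10 were found, all are protein-coding, and none shares an exonic base with another gene in the GENCODE M21 annotation.

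The libraries fall into 5 groups. Crypts came from mice on a mixed C57BL/6-FVB background that received beta-naphthoflavone for 6 weeks from an age of 6 weeks. They were WT (n = 3), Eed-/- (n = 3, called Eed KO here) or Ezh2-/- (n = 3, Ezh2 KO). Small intestinal organoids had 10 days of beta-naphthoflavone and were WT on an FVB background (n = 2) or Eed-/- on a C57BL/6-FVB background (n = 2). Every group, the controls included, was exposed to the inducer. AhCre is a Cre recombinase under a Cyp1a1 promoter that beta-naphthoflavone switches on, so it deletes floxed alleles in cells that respond to the inducer. Library names give AhCre with floxed Eed or Ezh2 for the knockouts of run 440 and the Eed KO organoids, and AhCre alone for the WT crypts of run 440 and the WT organoids. The labels of the WT and Eed KO crypts of run 385 name no Cre. Strain and genotype cannot be told apart in the organoids. The labels do not state whether replicate libraries are different mice or cultures. If they are not, the spread that p-values rest on is technical.

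Enteroendocrine cells are scattered secretory cells of the gut epithelium that arise from crypt stem cells through the transcription factor Neurog3. Each subtype makes its own mix of peptide hormones, stores them with granin proteins in dense-core granules, and releases them in response to nutrients, bile acids or nerves. Eed and Ezh2 are core subunits of Polycomb repressive complex 2, which methylates lysine 27 of histone H3 and keeps developmental genes silent. Ezh2 has a close relative, Ezh1, that can take its place in the complex, whereas Eed serves both.

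Libraries held 11421666 to 18300644 counts. Eed was at 15.9 to 25.04 CPM (read counts scaled to a common library size) in Eed KO crypts against 50.1 to 60.3 in WT crypts, and at 19.2 and 30.5 CPM in Eed KO organoids against 73.5 and 62.4 in WT organoids. Ezh2 was at 17.7 to 21.8 CPM in Ezh2 KO crypts against 72.2 to 95.3 in WT crypts. The share of cells that still carried an undeleted allele was not measured. Y-linked Ddx3y had 400 to 632 counts in the WT crypts of run 385 and the Eed KO organoids, and 0 or 1 in the other 9 libraries. Sex and genotype therefore cannot be told apart in run 385, while all crypts of run 440 had the pattern without Y-linked reads. Mitochondrial genes took 16.5% and 18.0% of counts in the Eed KO crypts of run 385 but 3.71% in that of run 440. WT crypts held 8.65% to 14.5%.

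Summed villus enterocyte markers were 599 and 665 CPM in the Eed KO crypts of run 385, below the WT crypt range of 1188 to 2766 CPM. The Eed KO library of run 440, at 3359 CPM, lay above that range. Of the 12 markers 1, Krt20, fell. Ileum sums split by run in the same way, at 23.0, 17.7 and 177 CPM against 64.6 to 139 CPM in WT crypts. So did proximal small intestine sums, at 155, 173 and 422 CPM against 244 to 366 CPM. Summed enteric neuron and glia markers were higher in Eed KO crypts, at 15.6 to 19.0 CPM against 9.44 to 11.5 CPM, although 0 of 6 tested markers passed the test by edgeR. The closest of them was Chat, which tuft cells also express, with a log2 difference of 2.70 (adjusted p = 0.051). The neuronal peptide gene Vip was too low to compare, at 0.123 CPM or less in WT crypts and 0 in every other group. Immune marker sums spanned 61.2 to 151 CPM in Eed KO crypts and 63.6 to 71.9 CPM in WT crypts, and 3 of 9 members rose (Laptm5, Itgax and Tyrobp). In Ezh2 KO crypts every library lay above the WT crypt range for villus enterocyte sums (3441 to 5909 CPM) and ileum sums (177 to 731 CPM). Immune sums, at 42.9 CPM or less, and mitochondrial shares, at 6.46% or less, lay below it. Proximal small intestine sums and neuron and glia sums overlapped with WT crypts. By edgeR, 0 of 12 villus enterocyte, 0 of 5 ileum and 0 of 9 immune markers passed in Ezh2 KO crypts. The part of these markers and shares in the results below was not tested.

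In WT crypts the level per kilobase of transcript was highest for Chgb, at 169.9 ± 13.002 CPM per kilobase (SD, n = 3), and Gip, at 140 ± 31.2. Chga (51.1 ± 6.69), Gcg (48.5 ± 9.05) and Sst (35.1 ± 12.3) followed on the same scale. Sct (17.1 ± 9.08), Cck (12.9 ± 0.164), Tac1 (10.1 ± 1.31), Nts (6.39 ± 2.37) and Pyy (4.40 ± 4.27) made up the low end. Chgb and Gip, Chga and Gcg, Sct and Cck, and Nts and Pyy are neighbours in this order whose means lay closer than the larger of their SDs.

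In Eed KO crypts most of the 10 genes were lower than in WT crypts, and only Sct was called higher. Sct rose about 16-fold and became the most abundant of the 10 per kilobase. Gip, Cck, Gcg, Tac1, Nts and Chgb fell, by 3.6-fold to 9.8-fold. Sst, Pyy and Chga did not pass the test. Of the 10 genes, 1 was higher, against 13.4% of the 14406 genes tested, a share close to the background. Another 6 were lower, against 10.6%. The median log2 difference was -1.88 over the 10 genes and -0.04 over all genes tested. A call here is a Benjamini-Hochberg adjusted p under 0.05 in edgeR's quasi-likelihood test over all genes, with sequencing run as a term. In whole crypts, fewer cells of a type and less RNA per cell cannot be told apart.

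**Figure D1:**
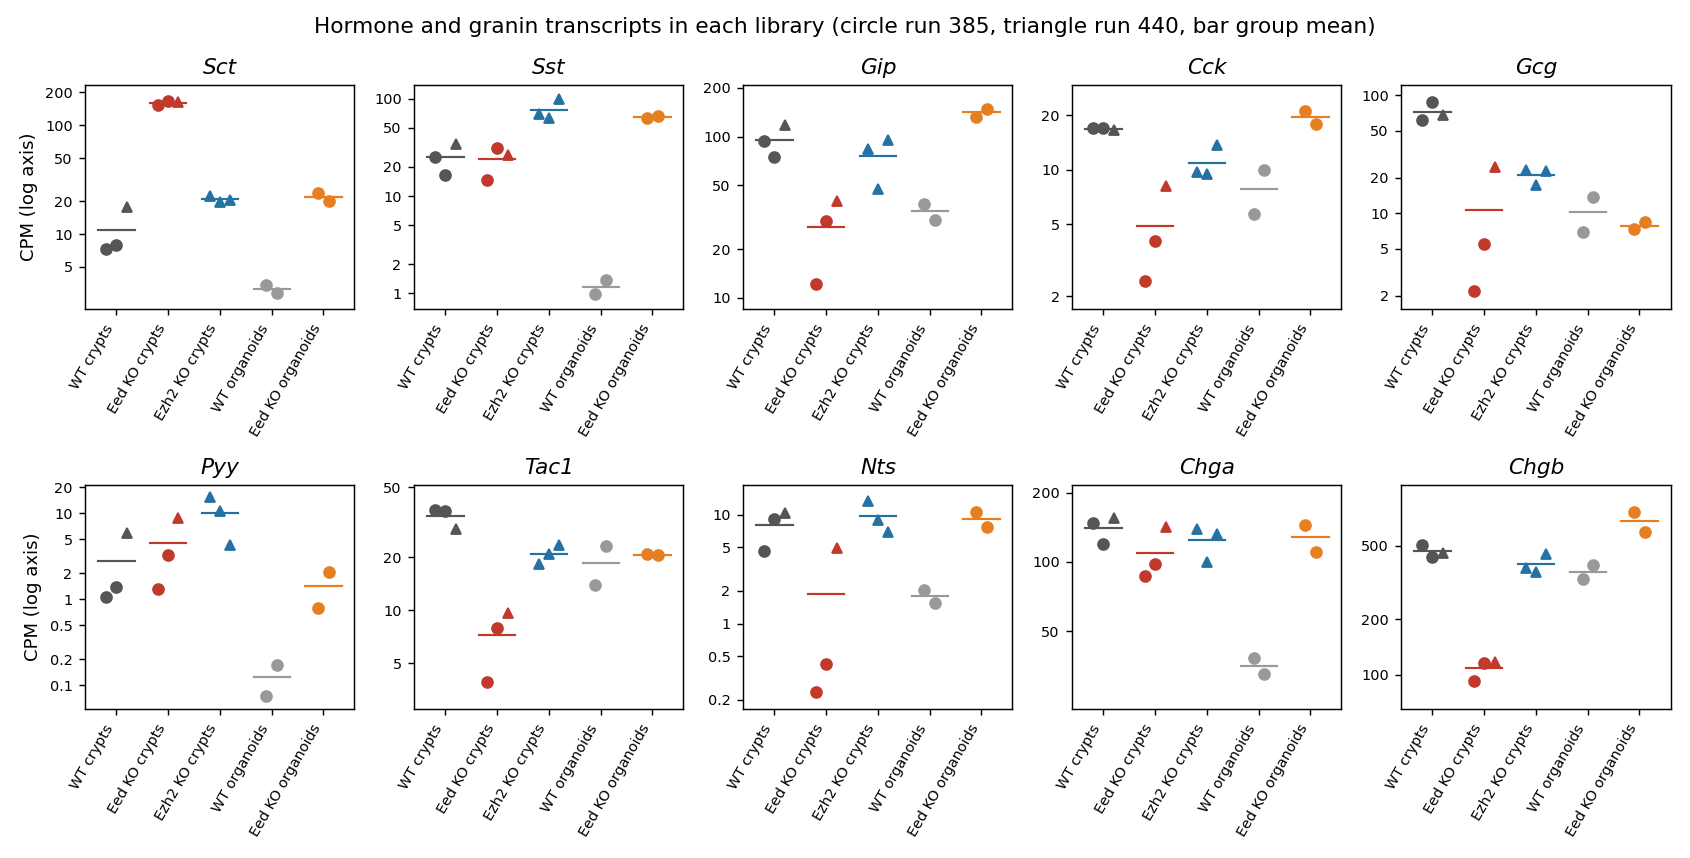
Normalised level (CPM, log axis) of each of the 10 genes in each of the 13 libraries; circles are run 385, triangles run 440, and bars are group means. Sct sits between 155 and 168 CPM in the 3 Eed KO crypt libraries, above every other library, and Sst is at 0.977 and 1.37 CPM in WT organoids.

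Sct (ENSMUSG00000038580, chr7:141278331-141279133 in GRCm38) encodes secretin, the hormone of S cells that makes the pancreas release bicarbonate. WT crypts had 7.39, 7.88 and 17.8 CPM. The knockout crypts had 155, 168 and 162 CPM. The 2 groups did not overlap, and the lowest knockout library stood well above the highest WT library. The difference was 3.98 ± 0.26 on the log2 scale (SE, adjusted p = 6.78e-05). It was 4.37 within run 385, where the WT libraries had the lowest levels, and 3.32 (adjusted p = 0.0033) within run 440, where 1 WT library met 1 Eed KO library and the spread came from the Ezh2 KO libraries.

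Gcg (ENSMUSG00000000394, chr2:62474530-62483650) encodes proglucagon, the precursor of GLP-1 and GLP-2 in L cells. WT crypts had 61.3, 87.5 and 68.4 CPM. Eed KO crypts had 2.19 and 5.50 CPM in run 385 and 24.6 CPM in run 440. All 3 knockout libraries were below all WT libraries, but that of run 440 was several times the others. The log2 difference was -3.29 ± 0.60 (adjusted p = 0.00488), being -4.32 within run 385 and -1.35 (adjusted p = 0.046) within run 440.

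Tac1 (ENSMUSG00000061762, chr6:7554879-7565834), the substance P precursor gene found in enterochromaffin cells and enteric neurons, was at 36.9, 36.7 and 29.1 CPM in WT crypts. Without Eed it was at 3.91, 7.95 and 9.69 CPM. The groups were well apart, and Tac1 fell by 2.27 ± 0.31 on the log2 scale (adjusted p = 0.00125). Within runs it was -2.67 and -1.46.

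Gip (ENSMUSG00000014351, chr11:96024545-96030831) encodes the incretin hormone of K cells. Its level was 94.4, 75.2 and 118 CPM in WT crypts and 12.1, 30.03 and 40.1 CPM in Eed KO crypts. The groups did not overlap. Gip fell by 1.85 ± 0.36 on the log2 scale (adjusted p = 0.00678), with -2.05 within run 385 and -1.43 within run 440, where it did not pass (adjusted p = 0.0984).

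Cck (ENSMUSG00000032532, chr9:121489825-121495689) encodes cholecystokinin of I cells, which contracts the gallbladder. The 3 WT crypt libraries were nearly equal at 17.0, 17.0 and 16.6 CPM. Those of Eed KO crypts, at 2.42, 4.06 and 8.17 CPM, were all below WT. Cck fell by 1.90 ± 0.34 on the log2 scale (adjusted p = 0.00449). The difference was -2.42 within run 385 and -0.89 within run 440, where it did not pass (adjusted p = 0.203).

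Nts (ENSMUSG00000019890, chr10:102481760-102490418), the neurotensin gene of N cells, was the least certain of the falling hormones. WT crypts had 4.63, 9.08 and 10.2 CPM. Eed KO crypts had 0.234 and 0.423 CPM, or 3 and 5 counts, in run 385, and 4.94 CPM, or 84 counts, in run 440. The last of these lies inside the WT range, so the groups overlap. The log2 difference was -2.85 ± 0.70 (adjusted p = 0.0185). In a fit of the 6 WT and Eed KO crypt libraries alone, without the Ezh2 KO libraries, it was -2.97 and did not pass (adjusted p = 0.0518). With replicate numbers also paired in that 6-library fit it was -2.99 (adjusted p = 0.0856). Nor did it pass with no run term (-2.05, adjusted p = 0.168) or within run 440 (-0.92, adjusted p = 0.294). Leaving out either Eed KO library of run 385 also ended the call (adjusted p = 0.0907 and 0.0804).

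For Sst and Pyy the knockout libraries lay within or around the WT values. Sst (ENSMUSG00000004366, chr16:23889581-23890844) encodes somatostatin, the inhibitory hormone of D cells. It was at 25.006, 16.6 and 34.3 CPM in WT crypts and 14.6, 31.3 and 26.1 CPM in Eed KO crypts, a log2 difference of -0.04 ± 0.32 (adjusted p = 0.947) whose sign changed when single libraries were left out. Pyy (ENSMUSG00000017311, chr11:102106676-102107832) encodes peptide YY, a hormone of distal L cells. It had 1.07, 1.38 and 5.88 CPM in WT crypts and 1.33, 3.30 and 8.75 CPM in Eed KO crypts, a log2 difference of 0.78 ± 0.52 (adjusted p = 0.330). In both groups the highest Pyy value was the library of run 440.

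The granins, acidic proteins that help pack hormones into dense-core granules, moved unequally. Chgb (ENSMUSG00000027350, chr2:132781278-132795079) was at 505, 435 and 456 CPM in WT crypts and 93.3, 117 and 117 CPM in Eed KO crypts. It fell by 2.09 ± 0.16 on the log2 scale (adjusted p = 0.00016), the smallest error of the 10 genes, and was -2.19 and -1.83 within the runs. Chga (ENSMUSG00000021194, chr12:102554969-102565027), the general enteroendocrine marker chromogranin A, was at 148, 120 and 155 CPM in WT crypts. Eed KO crypts had 86.9, 97.5 and 142 CPM, so the groups overlap. The log2 difference of -0.39 ± 0.18 did not pass (adjusted p = 0.149). Without the Eed KO library of run 440 it did (-0.61, adjusted p = 0.0492). The ratio of Chga to Chgb CPM was 0.275 to 0.339 in WT crypts and 0.837 to 1.21 in Eed KO crypts.

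**Figure D2:**
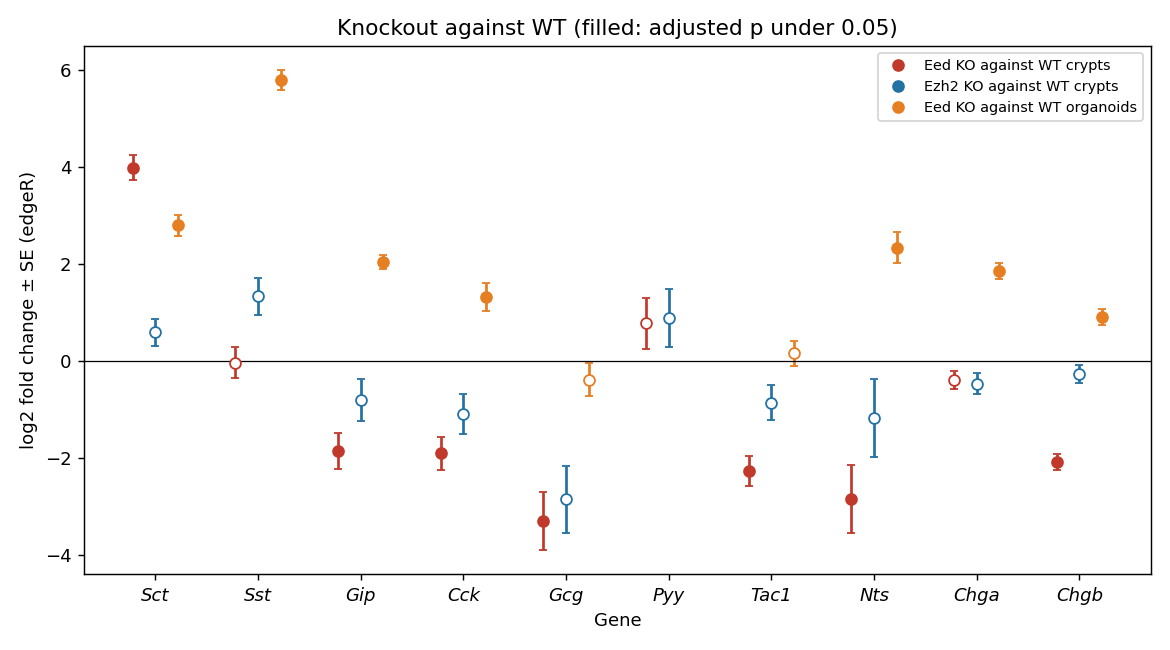
Log2 difference ± SE (edgeR) of each gene for 3 knockout comparisons; filled points have an adjusted p under 0.05. In crypts without Eed, Sct is at 3.98 and 6 filled points lie below 0; in organoids without Eed, 7 filled points lie above 0, led by Sst at 5.78; no Ezh2 KO point is filled. Pyy was not tested in organoids.

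The changes also altered the make-up of the 8 hormones, measured as each hormone's share of their summed CPM per kilobase. In WT crypts Gip held 54.1%, 46.3% and 51.8% of this sum and Sct held 4.51%, 5.17% and 8.31%. In Eed KO crypts Sct held 84.3%, 71.8% and 64.6%. Gip was left with 6.19%, 12.1% and 14.965% and Gcg with 0.514%, 1.02% and 4.22%, against 16.2%, 24.8% and 13.8% for Gcg in WT crypts. The summed CPM of the 8 hormones was 266 ± 29.4 in WT crypts and 242 ± 47.1 in Eed KO crypts (SD, n = 3), a difference smaller than either SD. Without Sct the sums were 255 ± 23.5 and 80.5 ± 42.8 CPM, and the groups did not overlap. By rank per kilobase, Sct moved from the sixth place in WT crypts to the first in Eed KO crypts, at 251 ± 9.92 CPM per kilobase. Gip (39.9 ± 20.6), Chgb (39.8 ± 4.98), Chga (39.5 ± 10.6) and Sst (33.3 ± 11.8) came next and lay within their spread of each other.

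**Figure D3:**
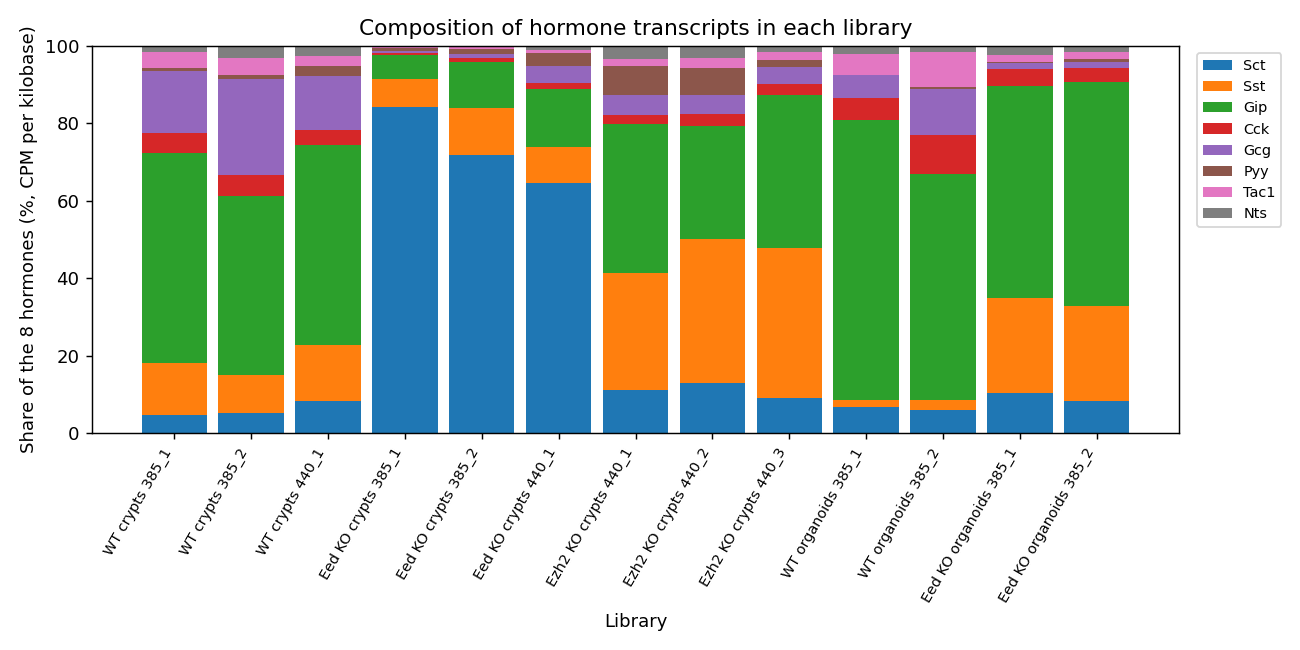
Share (%) of each of 8 hormones in their summed CPM per kilobase, 1 bar per library. Sct takes 64.6% to 84.3% of the Eed KO crypt bars and at most 12.9% of every other bar; Sst takes 24.6% of both Eed KO organoid bars.

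Promoters are shown for the hormones with the largest differences in Eed KO crypts, since these genes moved in opposite directions. They are the 250 bases before the RefSeq start of the gene in GRCm38.p6, on the strand of the gene, with CpG dinucleotides in capitals. Tac1, which also ranked among the largest, is not printed because its window overlaps the gene model.
Sct, chr7:141279134-141279383, minus strand: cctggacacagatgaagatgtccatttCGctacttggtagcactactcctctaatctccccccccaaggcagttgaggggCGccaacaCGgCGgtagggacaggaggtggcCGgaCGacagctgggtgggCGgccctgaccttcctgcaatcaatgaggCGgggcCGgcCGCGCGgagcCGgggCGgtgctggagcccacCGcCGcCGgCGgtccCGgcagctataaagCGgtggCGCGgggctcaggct
Gcg, chr2:62483654-62483903, minus strand: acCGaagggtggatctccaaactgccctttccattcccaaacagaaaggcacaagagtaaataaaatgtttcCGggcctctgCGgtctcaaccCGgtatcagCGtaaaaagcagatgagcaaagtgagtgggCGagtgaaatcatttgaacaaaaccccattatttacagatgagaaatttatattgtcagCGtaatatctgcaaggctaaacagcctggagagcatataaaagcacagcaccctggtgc
Nts, chr10:102490419-102490668, minus strand: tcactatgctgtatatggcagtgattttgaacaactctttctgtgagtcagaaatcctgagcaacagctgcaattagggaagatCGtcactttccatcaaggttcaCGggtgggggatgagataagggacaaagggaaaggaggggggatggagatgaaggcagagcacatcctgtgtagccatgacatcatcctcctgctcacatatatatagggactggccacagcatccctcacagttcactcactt

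The Sct window held 22 CpG and 68% G or C. Of 32851 RefSeq promoter windows of this length, 14.8% held at least as many CpG, and the median was 6. The falling genes spanned the range on this measure: Chgb had 26 CpG, Tac1 17, Cck 9, Gcg 7, Nts 2 and Gip 1. Among those that did not pass, Chga had 16 and Sst 8, and Pyy had 5 or 7 at its 2 RefSeq starts. The Chgb window lies inside the Chgb gene model, and the windows of Tac1 and of the Pyy start with 7 CpG overlap their gene models. Counts for these windows are therefore not of upstream sequence alone. Motifs were searched on both strands by their letters. A TATA box (TATAAA, in 12.4% of windows) was found once in Sct and 2 times in Gcg. The cAMP response element (TGACGTCA, in 1.55% of windows) was found once each in Sst and Chgb. The E-box (CANNTG), to which basic helix-loop-helix factors such as Neurog3 bind, was found in all 10 genes and in 66.2% of windows. The GC box (GGGCGG, in 32.7% of windows) was found 2 times each in Sct, Chga and Chgb and once in Tac1. No motif's letters hold another's, and a match describes the sequence only.

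Genes around the hormones were taken from 7 lists. Over all genes tested, 13.4% were higher and 10.6% lower in Eed KO crypts, and 13.5% and 4.63% in Eed KO organoids. The list counts below stand against these shares. Among other gut hormones and neuropeptides, 16 of 18 were in both tables and 5 had enough counts to test in crypts. Of these 3 rose and 1 fell in Eed KO crypts. Iapp, the amylin gene, was at 19.9 ± 7.20 CPM against 0.242 ± 0.230 in WT (log2 difference 6.52 ± 0.69, adjusted p = 0.000444). Adcyap1, which encodes the neuropeptide PACAP, had 73 counts in the 3 knockout libraries and 0 in WT, at least 22.5-fold higher against a floor of 3 counts over the group. Penk, the enkephalin precursor, had 94 counts against 1, a ratio of 86.8 (95% counting interval 15.2 to 3465). Ucn3, encoding urocortin 3, had 0 counts against 30 and was at least 10.8-fold lower by the same floor, though its call was lost within run 440 (adjusted p = 0.0553). Ghrl, the ghrelin gene, had a log2 difference of -0.88 and did not pass (adjusted p = 0.119). Iapp also marks pancreatic islet cells. Of their other markers, Ppy, Ins1 and Ins2 were not among the genes listed in both count tables, and G6pc2 had at most 1 count per library.

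Of 18 granule and prohormone-processing genes tested in Eed KO crypts, 6 rose and 3 fell, against 13.4% and 10.6% of all genes. The synaptotagmin gene Syt13 rose from 5.01 ± 0.623 to 49.0 ± 13.6 CPM, a log2 difference of 3.28 ± 0.21 (adjusted p = 5.96e-05). Pam, the enzyme that amidates peptides such as secretin, rose from 27.98 ± 4.05 to 89.8 ± 8.57 CPM (log2 difference 1.69, adjusted p = 0.000368). Pcsk1, the prohormone convertase that cleaves proglucagon to GLP-1, fell from 27.9 ± 1.44 to 10.1 ± 2.02 CPM (-1.48, adjusted p = 0.000581). Rab3c, a vesicle GTPase gene, fell by 2.87 on the log2 scale (adjusted p = 0.000368). Rab3b rose by 1.51 (adjusted p = 0.0298), a call lost in 11 of 18 alternatives. It did not pass without any 1 of 8 of the 9 crypt libraries (adjusted p from 0.0523 to 0.147), with the lowest values, 0.97 and 0.90, without the WT or the Eed KO library of run 440. Nor did it pass within run 385 (0.94, adjusted p = 0.153) or in the 6-library fit, unpaired (adjusted p = 0.0785) or paired (adjusted p = 0.152).

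Of 6 serotonin genes, 3 fell and 1 rose, against 10.6% and 13.4% of all genes. Tph1, the rate-limiting enzyme of gut serotonin synthesis, fell from 13.1 ± 0.301 to 3.01 ± 0.882 CPM (log2 difference -2.13 ± 0.27, adjusted p = 0.000961). Slc18a1, the vesicular monoamine transporter of enterochromaffin cells, rose from 21.5 ± 3.37 to 60.3 ± 12.03 CPM (adjusted p = 0.000619). Maoa, which degrades serotonin, fell by 1.89 (adjusted p = 0.00829) and Slc6a4, the serotonin reuptake transporter, fell by 1.08 (adjusted p = 0.0125). Both passed in the unpaired 6-library fit (adjusted p = 0.0304 and 0.0394) and not with replicate numbers paired in it (adjusted p = 0.0619 and 0.0856). Slc6a4 also lost the call without Eed KO library 1 of run 385 (adjusted p = 0.0546) and with no run term (adjusted p = 0.125). Within run 440 none of the 3 falling genes passed: Tph1 was at -1.63 (adjusted p = 0.0702), Maoa at -0.67 (adjusted p = 0.200) and Slc6a4 at -0.49 (adjusted p = 0.267).

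Of 24 enteroendocrine lineage factors, 7 were higher and 8 lower in Eed KO crypts, against 13.4% and 10.6% of all genes. Hhex, a homeobox gene of D cells, rose from 1.06 ± 0.347 to 11.6 ± 2.03 CPM (log2 difference 3.47 ± 0.28, adjusted p = 0.000173). Onecut3 rose by 2.63 (adjusted p = 0.00581), Pax6, which activates proglucagon transcription, by 2.43 (adjusted p = 0.000478) and Pdx1, a factor of the duodenum and pancreas, by 2.26 (adjusted p = 0.00361). Mnx1 fell by 2.20 (adjusted p = 0.00216). Neurog3 and Neurod1, chosen for mention after their values were seen because they drive the lineage, fell by 1.86 (adjusted p = 0.0043) and 1.25 (adjusted p = 0.0307). Within run 440 alone, Onecut3, Pdx1, Mnx1 and Neurog3 had the same sign but did not pass (adjusted p = 0.131, 0.0809, 0.0957 and 0.186). Neurod1 lost the call in 7 of 18 alternatives. These were the 6-library fit, unpaired (adjusted p = 0.0699) and paired (adjusted p = 0.133), run 385 alone (adjusted p = 0.0652), no run term (adjusted p = 0.124), and the fits without WT library 2 of run 385 (adjusted p = 0.0633), the WT library of run 440 (-0.77, adjusted p = 0.0777) or Eed KO library 1 of run 385 (adjusted p = 0.0544).

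Receptors for the peptide hormones were mostly too low to test: 6 of 21 in the tables passed the count filter. Sstr5, a somatostatin receptor, fell by 2.10 (adjusted p = 0.0432), and lost the call in 11 of 17 alternatives. It did not pass without any 1 of 7 of the 9 crypt libraries (adjusted p from 0.0546 to 0.126), with no run term (adjusted p = 0.151), within run 440 (-1.13, adjusted p = 0.304) or in the 6-library fit, unpaired (adjusted p = 0.102) or paired (adjusted p = 0.178). Of 7 nutrient and bile acid sensors tested, 2 rose and 1 fell. Trpa1, the irritant channel of enterochromaffin cells, went from 6.98 ± 2.24 to 0.178 ± 0.140 CPM (log2 difference -5.28 ± 0.52, adjusted p = 0.000348). The fatty acid receptors Ffar2 and Ffar4 rose by 1.06 (adjusted p = 0.00287) and 1.07 (adjusted p = 0.0132), and Ffar4 lost the call without WT library 2 of run 385 (adjusted p = 0.0712). Of 9 BMP feedback genes, Id1 (1.17, adjusted p = 0.00145), Id2 (1.69, adjusted p = 0.0059) and Id3 (0.85, adjusted p = 0.00322) rose. Bambi fell by 0.91 (adjusted p = 0.0146), a call lost without any 1 of the 4 WT and Eed KO crypt libraries of run 385 (adjusted p from 0.0547 to 0.108). Ffar4 and Bambi passed in the unpaired 6-library fit (adjusted p = 0.0347 and 0.0322) and not in the paired one (adjusted p = 0.0800 and 0.0750). Within run 440, Bambi was at -0.24 (adjusted p = 0.690) and Ffar4 at 0.67 (adjusted p = 0.315), and Ffar2, Id2 and Id3 did not pass either (adjusted p = 0.111, 0.201 and 0.0735). BMP signalling is known to switch the hormones that villus enteroendocrine cells make.

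**Figure D4:**
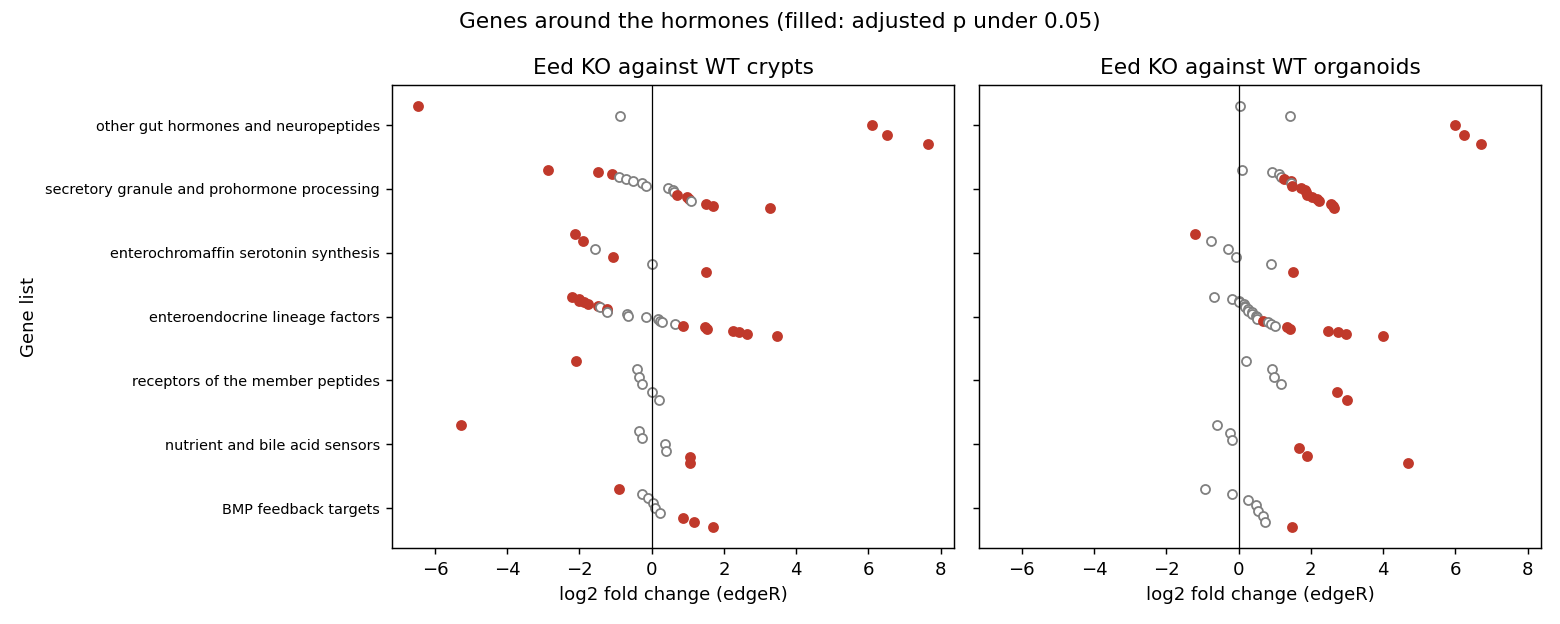
Log2 differences (edgeR) of the tested genes of 7 lists in Eed KO crypts and organoids; filled points have an adjusted p under 0.05 and height within a list has no meaning. In crypts filled points lie on both sides of 0 for granule genes (6 and 3) and lineage factors (7 and 8). In organoids they lie above 0 for both (13 and 7). Over all genes tested, 13.4% were higher and 10.6% lower in crypts, and 13.5% and 4.63% in organoids.

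With Ezh2 deleted, crypts passed the test for none of the 10 genes in either direction by edgeR, against 0% of all genes higher and 0.0208% lower. At an unadjusted p under 0.05 there were 4, but the share of all genes at that threshold was not counted. DESeq2 called 1, Gcg, lower. All Ezh2 KO crypts were in run 440, with 1 WT library, so the run term rested on the WT and Eed KO crypts. Their villus enterocyte, ileum and immune marker sums and mitochondrial shares lay outside the WT crypt range, as given above. The part of this in the hormone values below was not tested. Gcg had 23.3, 17.3 and 22.9 CPM in Ezh2 KO crypts, below every WT library (log2 difference -2.85 ± 0.69, adjusted p = 0.562). Sst had 69.0, 63.4 and 98.8 CPM, above every WT library (1.33 ± 0.39, adjusted p = 0.579). Tac1, at 18.2, 20.8 and 23.4 CPM, and Cck, at 9.68, 9.45 and 13.7 CPM, were also below every WT library, with log2 differences of -0.86 ± 0.36 (adjusted p = 0.602) and -1.09 ± 0.41 (adjusted p = 0.594). Sct was at 22.6, 19.7 and 20.5 CPM, just above the highest WT library (0.59 ± 0.28, adjusted p = 0.614). Against the 1 WT library of run 440 alone, the log2 differences were -1.65 for Gcg, 1.21 for Sst and -0.44 for Tac1. On the same comparison Cck was at -0.56 and Sct at 0.28.

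The remaining genes overlapped between Ezh2 KO and WT crypts. The share of all genes whose libraries did not overlap between these groups was not counted. Gip had 83.7, 47.4 and 95.5 CPM, Nts had 13.4, 8.94 and 6.94 CPM, and Pyy had 15.4, 10.7 and 4.22 CPM. Chga was at 139, 100 and 132 CPM and Chgb at 381, 360 and 452 CPM. Their log2 differences were -0.80, -1.18, 0.88, -0.46 and -0.27 in this order, with adjusted p between 0.614 and 0.715. Within run 440 they were -0.60, -0.03, 0.82, -0.28 and -0.16 in the same order. Without the WT library of run 440, Sct (1.44, adjusted p = 0.0222) passed as higher and Gcg (-4.50, adjusted p = 0.00255), Nts (-3.38, adjusted p = 0.0461) and Cck (-1.97, adjusted p = 0.0493) as lower; the run term then rested on the Eed KO libraries. Sst and Gip held similar shares of the hormone sum in Ezh2 KO crypts, at 35.4% ± 4.54 and 35.7% ± 5.67 (SD, n = 3), whereas in WT crypts they held 12.6% ± 2.49 and 50.7% ± 4.03. Sct held 11.0% ± 1.96.

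Set directly against Ezh2 KO crypts, Eed KO crypts had higher Sct (log2 difference 3.39 ± 0.28, adjusted p = 0.00027). They had lower Chgb (-1.82 ± 0.20, adjusted p = 0.000891), Tac1 (-1.41 ± 0.36, adjusted p = 0.0262) and Sst (-1.37 ± 0.40, adjusted p = 0.0445). This is 1 of 10 higher, against 12.0% of all genes, a share close to the background, and 3 of 10 lower, against 8.05%. Gip, Cck and Nts did not pass, with differences of -1.05 (adjusted p = 0.126), -0.81 (adjusted p = 0.177) and -1.67 (adjusted p = 0.133). Without any 1 Ezh2 KO library the calls of Sst (adjusted p from 0.0545 to 0.0958) and Tac1 (from 0.0555 to 0.0727) were lost, which left 1 gene lower. Sst also lost its call without WT library 1 of run 385 (adjusted p = 0.0597), and Tac1 without WT library 2 (adjusted p = 0.0527). Without the Eed KO library of run 440 there were 5 lower: Cck (adjusted p = 0.0248), Gcg (adjusted p = 0.011) and Nts (adjusted p = 0.0067) were added and Sst was lost (adjusted p = 0.189). Both knockouts were compared with the same WT libraries, so their differences from WT share that reference.

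Most of these genes were higher in Eed KO organoids than in WT organoids. Of the 9 tested, 7 were higher, against 13.5% of 12958 genes, and 0 were lower, against 4.63% (edgeR). Gcg and Tac1 were the 2 tested genes not called, at an unadjusted p under 0.05 or by DESeq2 either, so that the count of lower genes was 0 by all of these. The median log2 difference was 1.85 over the 9 genes and 0.00 over all genes. The organoid groups have 2 libraries each, and the 2 genotypes differ in strain and in Y-linked reads as given above.

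Sst showed the largest difference. It was at 0.977 and 1.37 CPM in WT organoids, 13 and 16 counts, and at 62.8 and 66.6 CPM in Eed KO organoids, 787 and 828 counts. The log2 difference of 5.78 ± 0.21 (adjusted p = 1.88e-05) is 55.0-fold. Sst held 1.76% and 2.51% of the hormone sum in WT organoids and 24.6% in both knockout libraries.

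Sct was at 3.38 and 2.91 CPM in WT organoids and 23.8 and 20.1 CPM in Eed KO organoids, a log2 difference of 2.79 ± 0.22 (adjusted p = 0.000376). Its level in the knockout organoids stayed well under that of Eed KO crypts. Gip rose from 38.3 and 30.3 CPM to 133 and 149 CPM (2.04 ± 0.15, adjusted p = 0.000336). Nts rose from 2.03 and 1.54 CPM to 10.5 and 7.65 CPM (2.33 ± 0.32, adjusted p = 0.0031), a call lost when all 13 libraries were fitted together (adjusted p = 0.051). For each of these hormones both knockout libraries were above both WT libraries.

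Cck was at 5.71 and 9.94 CPM in WT and 21.1 and 17.9 CPM in Eed KO organoids. Its difference of 1.32 ± 0.28 (adjusted p = 0.0187) lost the call without WT library 1 (adjusted p = 0.0521) or without knockout library 1 (adjusted p = 0.0634). Both granins rose. Chga went from 38.0 and 32.6 CPM to 145 and 111 CPM (1.85 ± 0.16, adjusted p = 0.000591). Chgb went from 329 and 393 CPM to 764 and 595 CPM (0.91 ± 0.17, adjusted p = 0.00968), a call lost without WT library 1 (adjusted p = 0.0731). The ratio of Chga to Chgb was 0.116 and 0.0830 in WT and 0.190 and 0.186 in Eed KO organoids.

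Gcg was at 6.92 and 13.6 CPM in WT and 7.34 and 8.37 CPM in Eed KO organoids, within the WT range (-0.39 ± 0.34, adjusted p = 0.520). Tac1, at 13.8 and 23.3 CPM in WT and 20.7 CPM in both knockout libraries, also lay within the WT range (0.16 ± 0.25, adjusted p = 0.740). Their signs turned when single WT libraries were left out. Pyy had 1 and 2 counts in WT and 10 and 26 counts in Eed KO organoids, too few for the fit. The ratio of pooled counts, each scaled by the pooled library size of its group, was 12.0. Its 95% counting interval of 3.79 to 60.9 covers counting error only. The summed CPM of the 8 hormones was 77.2 ± 8.49 in WT and 286 ± 8.99 in Eed KO organoids (SD, n = 2).

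Granule genes rose with the hormones in Eed KO organoids: 13 of 18 tested were higher and 0 lower, against 13.5% and 4.63% of all genes. Rab3b (2.65, adjusted p = 0.00706), Syt13 (2.62, adjusted p = 0.000801) and the granin Scg2 (2.57, adjusted p = 0.000618) led the list. Syt7, a calcium sensor of granule release, and Resp18 rose by 2.16 (adjusted p = 0.00523) and 2.23 (adjusted p = 0.0139). Among other hormones Iapp had 144 counts against 2, a ratio of 72.0 (19.6 to 600.3), and Penk 94 against 1, a ratio of 94.0 (16.5 to 3752). Adcyap1 had 26 counts against 0, at least 8.67-fold higher, while Ucn3 had a log2 difference of 0.03 (adjusted p = 0.973). Adcyap1 and Resp18 did not pass without WT library 1 (adjusted p = 0.0535 and 0.0844), nor Resp18 without knockout library 2 (adjusted p = 0.0622).

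Lineage factors in organoids had 7 of 24 higher and 0 lower, against 13.5% and 4.63% of all genes. Pax6 went from 1.36 ± 0.0125 to 21.8 ± 0.364 CPM (SD, n = 2), a log2 difference of 3.99 ± 0.23 (adjusted p = 0.000115). Onecut3 (2.97, adjusted p = 0.00928), Hhex (2.75, adjusted p = 0.00267), Isl1 (2.47, adjusted p = 0.00926) and Prox1 (1.43, adjusted p = 0.00652) rose as well. Neurog3 had a difference of -0.17 (adjusted p = 0.684) and Neurod1 of 0.27 (adjusted p = 0.660). Somatostatin receptors Sstr2 (2.73, adjusted p = 0.00666) and Sstr3, with 26 counts against 3 and a ratio of 8.67 (2.66 to 44.7), were higher. Of 6 sensors tested, 3 rose: Ffar2 (1.90, adjusted p = 0.0164), Ffar4 (1.67, adjusted p = 0.0118) and Asic5, with 32 counts against 1. Of 6 serotonin genes, Slc18a1 rose by 1.52 (adjusted p = 0.00627) and Slc6a4 fell by 1.21 (adjusted p = 0.0103). Of 8 BMP genes, Bambi rose by 1.47 (adjusted p = 0.0128). Without WT library 1, Onecut3, Ffar2, Ffar4, Asic5, Sstr3 and Bambi did not pass (adjusted p = 0.0645, 0.102, 0.0548, 0.0911, 0.190 and 0.0573). Sstr3 and Onecut3 also lost the call without WT library 2 (adjusted p = 0.0679 and 0.0505), Ffar2 and Sstr3 without knockout library 2 (adjusted p = 0.0651 and 0.0588), and Bambi without knockout library 1 (adjusted p = 0.0553). Summed neuron and glia markers were 16.7 and 17.5 CPM in Eed KO and 7.29 and 7.63 CPM in WT organoids, of which the receptor gene Ret had a difference of 1.38 (adjusted p = 0.00719). Their part in the result was not tested.

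The change from WT to Eed KO was compared between crypts and organoids by an interaction term in a fit of all 13 libraries. It was lower in crypts for 7 of 10 genes, against 2.99% of 14761 genes, and higher for 0, against 1.13% (edgeR). The unadjusted p was under 0.05 for all 10, but the share of all genes at that threshold was not counted. DESeq2 also called Sct, as higher (adjusted p = 0.0375), and Gcg, as lower (adjusted p = 0.00564). The median of this difference over all genes was -0.14, so the values below sit 0.14 lower than a centred scale would give. Sst differed by -5.83 ± 0.53 (adjusted p = 0.000427), Nts by -5.13 ± 0.95 (adjusted p = 0.0152) and Gip by -3.90 ± 0.52 (adjusted p = 0.00326). Cck (-3.22 ± 0.52, adjusted p = 0.00812), Chgb (-3.01 ± 0.26, adjusted p = 0.000427), Tac1 (-2.43 ± 0.46, adjusted p = 0.0182) and Chga (-2.25 ± 0.28, adjusted p = 0.00213) followed. Sct rose in both settings, and its difference of 1.18 ± 0.36 did not pass (adjusted p = 0.0991). Gcg (-2.90 ± 0.85, adjusted p = 0.0832) and Pyy (-2.71 ± 1.15, adjusted p = 0.246) did not pass either. With the libraries of run 385 only, Sct (1.61, adjusted p = 0.00341) and Gcg (-3.90, adjusted p = 0.00587) passed, as they did without the WT or the Eed KO crypt library of run 440. Without WT organoid library 1, 4 genes were called lower, with Cck (adjusted p = 0.0536), Tac1 (adjusted p = 0.0957) and Nts (adjusted p = 0.077) lost. Nts was also lost without WT organoid library 2 (adjusted p = 0.0834), and Tac1 without WT crypt library 2 of run 385 (adjusted p = 0.0551) or Eed KO organoid library 1 (adjusted p = 0.0531). Crypts and organoids differed in time after induction, strain of the controls and Y-linked reads, which cannot be told apart here.

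Controls set the scale for these differences. WT crypts had more of 6 of the 10 genes than WT organoids, against 18.9% of all genes, and less of 0, against 9.17% (edgeR). Sst was higher by 4.24 ± 0.45 on the log2 scale (adjusted p = 7.48e-05), Pyy by 3.32 ± 0.97 (adjusted p = 0.0257), Gcg by 2.50 ± 0.61 (adjusted p = 0.011), Chga by 1.85 ± 0.22 (adjusted p = 0.000128), Sct by 1.52 ± 0.29 (adjusted p = 0.00294) and Gip by 1.23 ± 0.38 (adjusted p = 0.0338). Cck, Tac1, Nts and Chgb had differences of 0.92, 0.83, 1.55 and 0.35 that did not pass (adjusted p = 0.0907, 0.0873, 0.109 and 0.196). The median over all genes was 0.13. Gip did not pass without either WT crypt library of run 385 (adjusted p = 0.123 and 0.0900) or either WT organoid library (0.106 and 0.185). Pyy did not pass without WT crypt library 2 of run 385 (adjusted p = 0.0751) or either WT organoid library (0.170 and 0.0857), nor Gcg without that crypt library (adjusted p = 0.0540) or WT organoid library 1 (adjusted p = 0.113), which left 3 genes higher at the fewest. Without the WT crypt library of run 440, Cck, Tac1 and Nts passed too (adjusted p = 0.0237, 0.0342 and 0.00741), as they did without the Eed KO crypt library of that run, and Tac1 also without Eed KO crypt library 1 of run 385 (adjusted p = 0.0358). All 9 immune markers were higher in WT crypts, and 9 of 12 villus enterocyte markers were lower, with sums of 9391 and 13655 CPM in WT organoids.

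The order of levels per kilobase also differed between groups. Ezh2 KO crypts had Chgb (145 ± 17.6 CPM per kilobase), Gip (110 ± 36.4) and Sst (107 ± 26.4) on top, the last pair within their spread. WT organoids had Chgb (132 ± 16.6) far above Gip (49.9 ± 8.17) and Chga (12.8 ± 1.39), and Sst (1.63 ± 0.386), Nts (1.43 ± 0.276) and Pyy (0.195 ± 0.108) at the bottom. Eed KO organoids had Chgb (248 ± 43.5) and Gip (205 ± 16.6), then Sst (89.7 ± 3.82), Chga (46.4 ± 8.92) and Sct (34.0 ± 3.99). Gcg was the fourth in WT crypts and WT organoids, the sixth in Eed KO crypts, the seventh in Ezh2 KO crypts and the ninth in Eed KO organoids.

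Crypts of run 440 and run 385 were compared with genotype as a term. Of 10 genes, 1 was higher, against 6.40% of all genes, and 0 were lower, against 4.19% (edgeR). The called gene was Pyy, by 2.08 ± 0.51 on the log2 scale (adjusted p = 0.0408). An unadjusted p under 0.05 was found for 4, with no share over all genes counted. Nts and Gcg had differences of 2.07 (adjusted p = 0.0777) and 1.39 (adjusted p = 0.137).

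Genes with a pattern most like that of Sct over the 13 libraries were Wfdc2 (Pearson r of log2 CPM 0.981), Emid1 (0.980) and Eya2 (0.977). For Chgb they included Cyp2e1 (0.955) and Dlgap5 (0.936). These are descriptions over libraries that share run, depth and group.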

How the data were processed

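RNA from crypts and organoids was made into strand-specific libraries with the TruSeq Stranded mRNA kit, per the labels' protocols. The authors deposited raw read counts per Ensembl gene, 1 table for each of the sequencing runs 385 and 440. TopHat2 2.0.12, Bowtie 0.12.9, HTSeq, DESeq2 and the build GRCm38 are named, per the submitters' processing notes. Whether counting used the strand is not stated. Tables were joined on 21420 shared gene IDs (of 23969 and 22634); organoids were tested on their own table.

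Genes with too few counts were dropped (filterByExpr by group, minimum count 10, total 15). Tests were edgeR 4.0.16 quasi-likelihood F tests (R 4.3.3, TMM scaling) with Benjamini-Hochberg adjustment over all genes tested and a threshold of 0.05. Crypts were fitted with group and run (9 libraries, 5 residual degrees of freedom), organoids with group (4 libraries, 2), and the interaction over all 13 libraries (7). CPM are read counts scaled to a common library size by TMM over the 13 libraries, and lengths are unions of GENCODE M21 exons. Scripts were tested on simulated data. Intervals of low-count ratios cover counting error only.

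Same-numbered crypt libraries deviated together from their group means (r = 0.177, 0.375 and 0.342 for WT against Eed KO), all above 0.1. Run was left in these deviations, and pairs from different runs had r from -0.458 to -0.105. Within run 385, differently numbered libraries had r of 0.371 (WT library 2 and Eed KO library 1) and 0.00988. The check cannot tell pairing by number from shared run, so pairing is not shown. Replicate numbers were used as a block in an alternative only. Blocked values, fitted without the Ezh2 KO libraries, are given where a call changed, beside the same fit with no block. The 10 genes, the gene lists and the tests were chosen with earlier results of these data known. List genes are named where they passed in Eed KO crypts or organoids, up to 5 per list by size of log2 difference, and the 3 genes most like Sct and Chgb by Pearson r; some named items are not reported here. The run comparison was added after seeing the data. Alternatives were other size factors, DESeq2 1.42.0, no count filter, other sets of libraries, and leaving out each library in turn.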

Additional observations from a re-analysis of the deposited data

Results flagged for a closer look

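The log2 change from WT to Eed KO differed between crypts and organoids, by the interaction test over 13 libraries, for 7 hormones and granins. The value in crypts minus that in organoids was -5.83 for Sst, -5.13 for Nts, -3.90 for Gip, -3.22 for Cck, -3.01 for Chgb, -2.43 for Tac1 and -2.25 for Chga. Among the named genes of the lists it differed for Ucn3 (-6.45), Trpa1 (-4.68), Rab3c (-2.97), Pcsk1 (-2.73), Bambi (-2.38), Tph1 (-2.05) and Pax6 (-1.57). Pax6 rose in both settings and rose less in crypts. Pcsk1 and Bambi fell in crypts and rose in organoids.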

How the results depend on the processing

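Of 80 called differences of single genes, 42 kept their direction and their side of the threshold under every alternative that was run, and 0 turned their sign in 1156 recomputed values. In Eed KO crypts Sct, Gcg, Tac1 and Chgb kept their call in all 18 alternatives. In crypts the replicate block was fitted without the Ezh2 KO libraries. It had 1 member higher and 5 lower, the same counts as that 6-library fit without the block. Over all genes, leaving out the Ezh2 KO libraries took the calls from 1932 higher and 1531 lower to 1465 and 999, and adding the block to 1046 and 543. In organoids, where only 2 numbers are shared, pairing could not be shown either. There the block left 7 members higher and called 1441 genes lower (600 without it). It changed no other call than those given above.

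Counts over all genes ranged, over the alternatives, from 868 to 2433 higher and 406 to 2042 lower in Eed KO crypts, both lowest within run 440. They were 1084 to 2461 and 255 to 1441 in organoids, 0 to 254 and 1 to 259 in Ezh2 KO crypts, 1132 to 2045 and 593 to 2209 between the knockouts, 67 to 394 and 81 to 960 for the interaction, and 1315 to 2961 and 769 to 1787 between the controls.

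Member counts moved as follows. Eed KO crypts had 3 lower within run 440. Ezh2 KO crypts had 1 lower by DESeq2, and 0 to 1 higher and 0 to 3 lower when single libraries were left out. Eed KO against Ezh2 KO crypts had 1 to 5 lower. The interaction had 1 higher by DESeq2 and within run 385 only, and 0 to 1 higher and 4 to 8 lower when libraries were left out. WT crypts against WT organoids had 3 to 9 higher, the 9 without the WT or the Eed KO crypt library of run 440 and with run 385 only. By counts in place of counts per kilobase, Sct held 8.66% of the hormone sum in Ezh2 KO crypts, 4.13% in WT organoids and 7.68% in Eed KO organoids.

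All signs that turned belong to differences that were not called. Leaving out single libraries, the range was -0.46 to 0.18 for Sst in Eed KO crypts, -0.81 to 0.19 for Gcg, -0.19 to 0.59 for Tac1, -0.51 to 0.11 for Neurog3 and -0.17 to 0.61 for Neurod1 in Eed KO organoids. Between Eed KO and Ezh2 KO crypts it was -2.71 to 0.22 for Gcg, -0.47 to 0.35 for Pyy and -0.33 to 0.20 for Chga. Within run 385, Sst in Eed KO crypts was 0.10. Within run 440, Chga was 0.0071 and Gcg against Ezh2 KO 0.30. With no run term, Nts in Ezh2 KO was 0.29 and Chga against Ezh2 KO -0.18. The cause was not tested. Of 21 peptide receptors, 6 passed the count filter in crypts.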
